A study of Mus musculus with 6 samples.

Results

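Ovaries from mice labelled as old and given MIT-001 were compared with ovaries from mice labelled as young and given PBS, which are 4 of the 6 messenger RNA libraries of the series. The libraries were chosen by their labels alone: 2 from wild-type BDF1 mice of 65 weeks injected with MIT-001, and 2 from wild-type BDF1 mice of 8 weeks injected with PBS. Of 45679 gene symbols, 15949 were abundant enough to test. The remaining 2 libraries, labelled 65 weeks and PBS, entered the comparison through the shared estimate of spread. BDF1 is a hybrid laboratory strain, and MIT-001 is a scavenger of reactive oxygen species directed to mitochondria. The study's protocol gives 20 young and 40 old mice, and intraperitoneal doses of 0.5 mg/kg over 7 days. The labels do not say how many animals gave a library, so every test below measures the spread between these libraries only. Age and treatment both differ between the groups, and their parts in any difference cannot be told apart.

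An ovary holds follicles, in which granulosa cells surround an oocyte, within a stroma of fibroblasts, theca cells, vessels and immune cells, and a single layer of surface epithelium covers it. The oviduct and the fat of the bursa lie against it. Ageing of the mouse ovary is known for the loss of follicles and for the build-up of matrix, plasma cells and macrophages, some of them multinucleated. Macrophages clear dying granulosa cells and regressing corpora lutea, and they carry MHC class II, which presents antigen to T cells, and C1q, which starts the classical complement pathway.

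Between 14317 and 16304 genes reached 1 TPM (an abundance per unit of transcript length, scaled to the same total in each library) in each of the 4 libraries. Oocyte genes went against the age labels of the series. Gdf9, an oocyte growth factor, stood at 73.3 and 9.51 TPM under the young PBS label and at 22.8 and 9.35 TPM under the old MIT-001 label, but at 116 and 108 TPM under the old PBS label. Granulosa genes summed to 8420.2 and 10538 TPM under the old PBS label, against 3337 to 4752 TPM in the 4 libraries compared, and macrophage genes to 246 and 334 TPM, against 660 to 1288 TPM. Whether labels were exchanged was not tested, and groups are therefore named as labelled throughout. Replicate 1 labelled young PBS stood apart from replicate 2, with a median absolute log2 difference of 0.515 over the 15949 genes tested. The same measure was 0.234 between the libraries labelled old MIT-001, and from 0.436 to 0.573 between any library labelled young PBS and any labelled old MIT-001. The spread within the group labelled young PBS was thus as wide as the distance between the groups.

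No gene passed limma's test at an adjusted p of 0.05 (0 of 15949, 0% called), and the smallest adjusted p was 0.156. Unadjusted p-values below 0.05 were found for 2818 genes with higher values (17.7%) and for 134 with lower values (0.84%) under the old MIT-001 label. The log2 fold change was above 0 for 69.8% of genes and below 0 for 30.2%. Both libraries labelled old MIT-001 lay above both labelled young PBS for 6025 genes (37.8% of those tested), and below both for 1048 (6.57%). These shares are the background for the lists below, in TPM as deposited. Over all genes the median log2 fold change was 0.25, so a list at 0.25 moved no differently from the typical gene. The excess of higher values followed the scaling: among genes with such a p the higher share was 95.5% in TPM. It was 83.3% in FPKM, 63.3% when libraries were quantile normalized, and 45.6% when each library was centred on its median. Centring moved every fold change by the same amount and put the median of all genes at -0.16. Without replicate 1 or 2 labelled old MIT-001, 1312 and 1385 genes were higher at that threshold, and without replicate 2 labelled old MIT-001 46 were lower. Without replicate 1 or 2 labelled young PBS, 1344 and 816 were lower, and without replicate 1 or 2 labelled old PBS, 76 and 75.

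The fold change of a gene went with the base composition of its transcript. With genes in 5 equal groups by GC content, the group with the lowest content (25.3% to 44.1%) had a median log2 fold change of 0.82. It was 0.42, 0.19 and 0.03 in the next 3 groups, and -0.04 in the group with the highest. A slope of the same direction lay within the group labelled young PBS, where replicate 1 minus replicate 2 ran from 0.37 to -0.24 over the same gene groups. Between the libraries labelled old MIT-001 it ran only from 0.08 to 0.01. For old PBS minus young PBS, as labelled, the medians fell likewise, from 0.62 to -0.04. Longer transcripts were also higher, from a median of 0.05 in the shortest of 5 groups to 0.52 in the longest. For old PBS minus young PBS, as labelled, the medians rose from 0.02 to 0.43. Within the group labelled young PBS the slope with length ran the other way, with replicate 1 minus replicate 2 at 0.47 in the shortest group and -0.13 in the longest. Of 355 zinc finger genes with a Zfp symbol, a family chosen after its values were seen, 253 did not overlap and were higher, 5 did not overlap and were lower, and the median was 0.76. After each library was centred within bins of GC content and length, an alternative also chosen after seeing the data, the median of these genes was 0.13, and 605 higher against 715 lower genes had an unadjusted p below 0.05. That share of 45.8% higher is given with the others because it divides the results below into lists that hold under it and lists that do not.

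**Figure D1:**
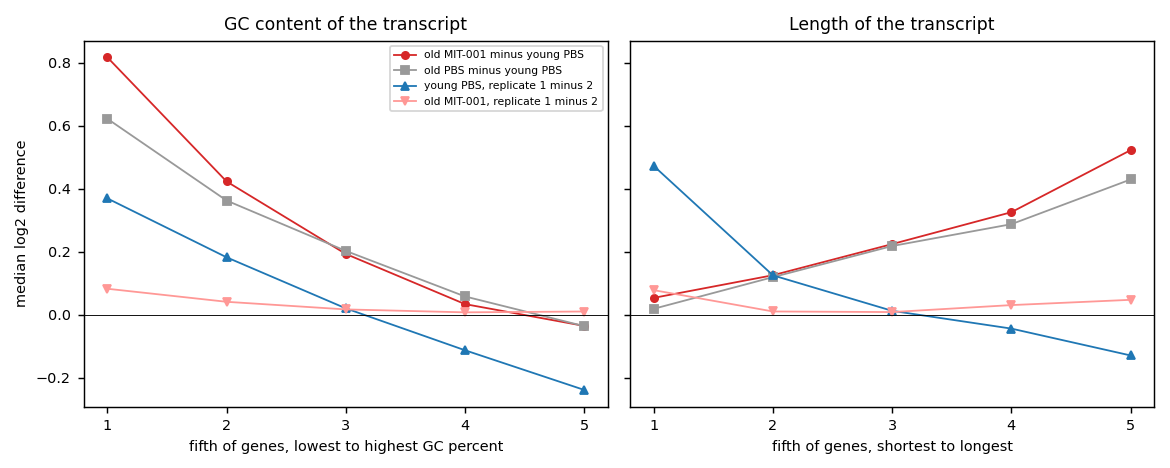
Median log2 difference (vertical axis) of genes in 5 equal groups by GC content (left) and by transcript length (right), for the comparison of old MIT-001 with young PBS, for old PBS with young PBS, and for the replicates within each of 2 groups, as labelled. The red line falls from 0.82 to -0.04 with GC content, and the line for old PBS with young PBS from 0.62 to -0.04. The line within young PBS falls from 0.37 to -0.24, and the line within old MIT-001 stays between 0.08 and 0.01.

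Of the 45 gene lists examined, the surface epithelium list had the largest share of members that were higher in both libraries labelled old MIT-001. Of 15 surface epithelium genes, all tested, 14 did not overlap and were higher, against 37.8% of all genes. Their median log2 fold change was 1.12, and it lay between 0.72 and 1.45 in every alternative run. After median centring 9 of the 15 did not overlap and were higher, against 2911 of all 15949 genes. Krt18, a keratin of simple epithelia, stood at 49.7 and 48.8 TPM under the young PBS label and at 142 and 150 TPM under the old MIT-001 label. The log2 fold change was 1.55 ± 0.18 (SE, n = 2 each), and its adjusted p by limma was 0.156. Krt18 was named for its small p within this list, which favours close replicates, so their closeness is not read as support. Krt8, another keratin gene of the list, was at 62.3 and 110 TPM against 148 and 152 TPM, with a smaller fold change (0.84 ± 0.29). The keratin gene Krt7 stood at 13.6 and 15.1 TPM against 46.2 and 75.0 TPM (1.97 ± 0.29). Cdh1, the adhesion protein E-cadherin, was at 6.53 and 9.44 TPM against 23.2 and 41.9 TPM (1.86 ± 0.37). Wt1, a transcription factor of both surface epithelium and granulosa cells, was at 62.4 and 41.9 TPM against 149 and 160 TPM (1.57 ± 0.25). Upk3b and Upk1b, uroplakin genes that mark the mesothelial-like surface layer, were at 58.4 and 89.0 TPM against 127 and 135 TPM, and at 5.24 and 5.03 TPM against 14.1 and 14.9 TPM. The single member that overlapped was Lgr5, a receptor of Wnt-responsive progenitors, at 9.28 and 81.9 TPM against 81.0 and 42.5 TPM. Both old PBS libraries, as labelled, were lower than both groups for Krt18 (23.1 and 22.5 TPM), Krt7 (6.99 and 6.17 TPM) and Cdh1 (2.29 and 2.36 TPM). In tissue RNA, more cells of a type and more RNA per cell cannot be told apart.

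Genes of oviduct secretory cells, a neighbouring epithelium, were higher as well. Of 15 genes, all tested, 10 did not overlap and were higher, against 37.8% of all genes, and 1 (Msx1) did not overlap and was lower. The list's median was 1.68 (1.27 to 1.99 over the alternatives run). Like the other lists it was chosen with earlier results of these data known, so neither value is read as support. Slc15a2, a peptide transporter, stood at 4.99 and 4.30 TPM under the young PBS label and at 24.1 and 30.7 TPM under the old MIT-001 label (log2 fold change 2.32 ± 0.28). Pax8, a transcription factor that defines this epithelium, was at 7.06 and 1.95 TPM against 27.9 and 18.3 TPM (2.28 ± 0.54). The mucin Muc1 was at 2.48 and 3.16 TPM against 8.25 and 15.1 TPM (1.68 ± 0.38). Ovgp1, the oviduct glycoprotein secreted around the egg, was at 27.8 and 128 TPM against 567 and 215 TPM (2.52 ± 0.78), so its replicates differed several-fold in both groups. Summed over the list, the level was 290 and 393 TPM under the young PBS label and 1158 and 981 TPM under the old MIT-001 label, and no member tested was listed at 0. The overlap of this list with the surface epithelium list is Krt7 and Epcam. Whether oviduct tissue in the samples had a part in the epithelial differences was not tested.

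Ciliated cell genes, the third epithelial list, were high in 1 library. Foxj1, the master regulator of motile cilia, stood at 4.08 and 3.08 TPM under the young PBS label, and at 0.867 TPM in replicate 1 and 67.0 TPM in replicate 2 labelled old MIT-001. Of 18 genes 13 were tested, and 4 (Ccdc39, Ccdc40, Rsph4a and Tppp3) did not overlap and were higher. The first 3 of these were below 1 TPM in both libraries labelled young PBS and so were tested only through their level under the old MIT-001 label. Neither the count nor the median below is read as support. The summed level was 80.8 and 54.6 TPM under the young PBS label, 60.6 TPM in replicate 1 of the old MIT-001 label and 491 TPM in replicate 2. The median log2 fold change of 1.17 was -0.83 without that replicate. The surface epithelium genes summed to 1062 TPM in replicate 1 and 1083 TPM in replicate 2, against 437 and 559 TPM under the young PBS label.

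**Figure D2:**
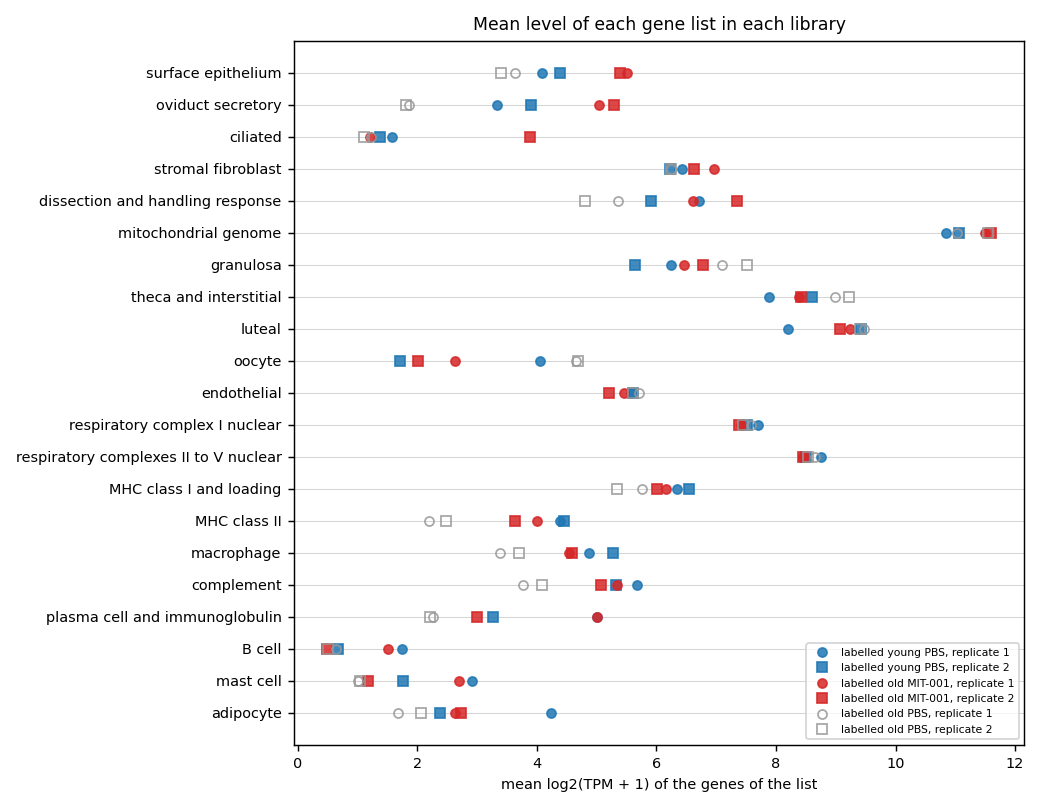
Mean log2(TPM + 1) of the genes of 21 lists (horizontal axis) in each of the 6 libraries, colour for the group as labelled and shape for the replicate. Surface epithelium and oviduct secretory genes are highest in both libraries labelled old MIT-001 (for surface epithelium 5.51 and 5.39, against 4.08 and 4.38 for young PBS), ciliated genes only in replicate 2 (3.88), and plasma cell, B cell and mast cell genes are high in replicate 1 of both groups compared.

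The 12 genes with the largest higher fold changes follow. None passed (adjusted p by limma from 0.156 to 0.243), and all 12 kept their sign in every alternative in which they were tested. That is not read as support, since the genes were chosen for no overlap and large fold changes in the same data. Ppp2r2b, a regulatory subunit of protein phosphatase 2A, stood at 2.63 and 1.22 TPM under the young PBS label and at 32.4 and 23.003 TPM under the old MIT-001 label (log2 fold change 3.32 ± 0.36). The tight junction gene Cldn22 was at 0.0554 and 0.285 TPM against 6.83 and 10.1 TPM (3.002 ± 0.33). Being below 1 TPM in both libraries labelled young PBS, it was tested only through its level under the old MIT-001 label. Plet1, an epithelial surface protein, was at 13.0 and 37.6 TPM against 182 and 126 TPM (2.71 ± 0.56). For these 3 genes the groups were several-fold apart at their nearest libraries. All 3 were chosen for no overlap and large fold changes, so this gap is not read as support. Other genes were carried by 1 library: the calcium-binding gene Calb1 was at 2.65 and 1.69 TPM against 44.8 and 8.60 TPM, and Capsl at 2.42 and 0.982 TPM against 5.29 and 40.5 TPM. Fndc7 (1.42 and 0.453 against 5.29 and 27.8 TPM) and the water channel Aqp5 (3.23 and 14.4 against 28.7 and 88.5 TPM) were likewise highest in replicate 2 labelled old MIT-001, the library with high ciliated genes. Cdkl1, a kinase gene, was at 1.83 and 2.77 TPM against 15.0 and 30.9 TPM. Onecut2, a transcription factor gene, ranged more within the group labelled young PBS (0.819 and 18.5 TPM) than between its nearest libraries (40.1 and 32.6 TPM labelled old MIT-001).

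A pair of matrix genes that neighbour each other on chromosome 13, Ogn and Omd, stood among the 12. Both encode small leucine-rich proteoglycans, which bind collagen fibrils. Ogn (osteoglycin, Gene ID 18295, plus strand, chr13:49608015-49624501 on mm10) was at 40.0 and 25.4 TPM under the young PBS label and at 241 and 273 TPM under the old MIT-001 label, a log2 fold change of 2.97 ± 0.54. Omd (osteomodulin, 27047, chr13:49582462-49592612) was at 1.60 and 1.06 TPM against 8.78 and 23.8 TPM (2.75 ± 0.71). Their transcripts are poor in GC (36.3% and 36.1%), and after GC and length centring the fold changes were 2.16 and 1.94. The libraries labelled old PBS were split for Ogn, at 65.9 and 209 TPM. Of 14 stromal fibroblast genes, 5 did not overlap and were higher and 1 was lower. Fbln1, a matrix glycoprotein, was the lower one, at 116 and 119 TPM against 80.6 and 71.6 TPM (-0.62 ± 0.18). The stromal median was 0.47, and 0.06 after median centring, against 0.25 and -0.16 for all genes.

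**Figure D3:**
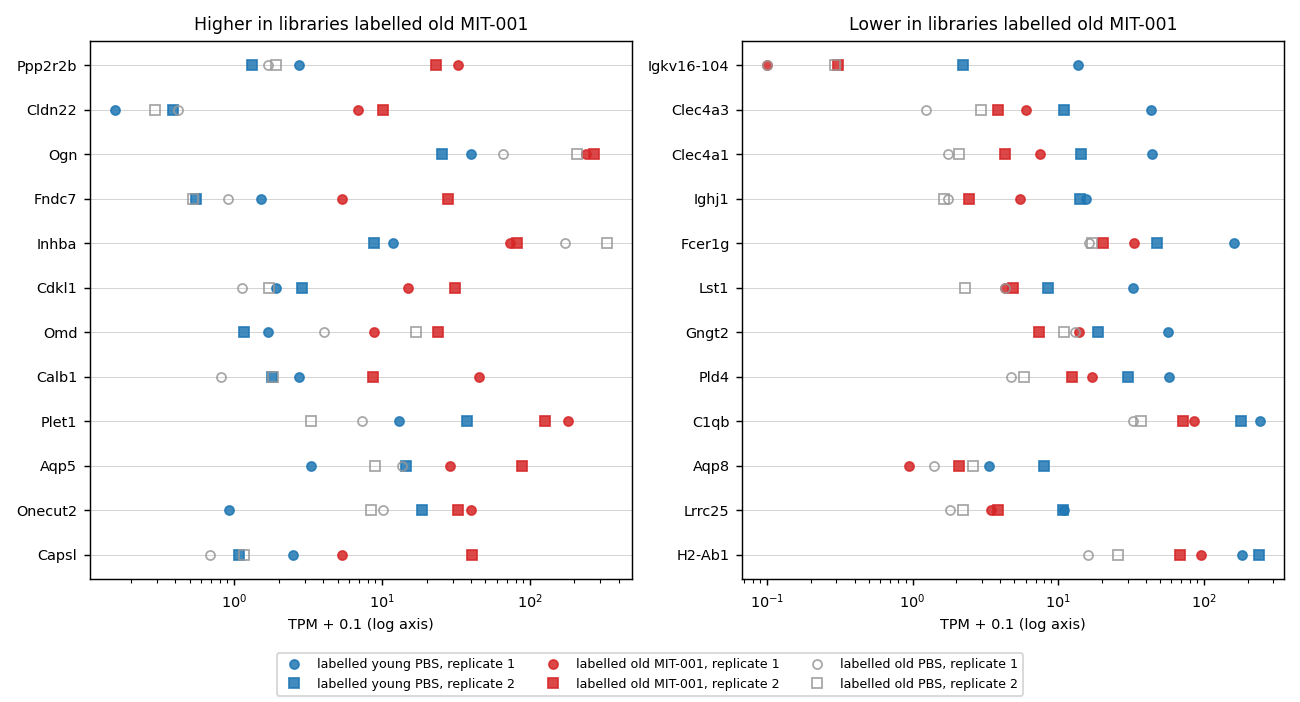
TPM + 0.1 (log axis) of the 24 genes with the largest fold changes in each of the 6 libraries, colour for the group as labelled and shape for the replicate. By the rule that chose them, all 24 have the red points (old MIT-001) on 1 side of the blue points (young PBS). For Calb1, Capsl and Fndc7 a single red point lies far from the other.

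Granulosa genes did not move as a group. Of 18 granulosa genes, 6 did not overlap and were higher and 2 were lower. Their median was 0.35, and -0.06 after median centring, against 0.25 and -0.16 for all genes. Inhba, the subunit of activin A (16323, chr13:16004256-16031609, plus strand), stood at 11.9 and 8.66 TPM under the young PBS label and at 72.7 and 81.5 TPM under the old MIT-001 label (log2 fold change 2.81 ± 0.35). Its fold change was 1.44 after GC and length centring. The related subunit genes differed from it: Inhbb was at 126 and 125 TPM against 82.6 and 105 TPM, and Inha was at 2048 and 2051 TPM against 1399 and 2235 TPM. Kctd14 was at 52.6 and 15.4 TPM against 121 and 134 TPM (2.12 ± 0.53), and Gatm, the first enzyme of creatine synthesis, at 41.6 and 22.6 TPM against 77.9 and 131 TPM (1.68 ± 0.38). Kitl, the ligand by which granulosa cells signal to the oocyte's KIT receptor, was at 5.77 and 6.73 TPM against 23.8 and 16.9 TPM, and its fold change of 1.54 ± 0.40 was 0.18 after GC and length centring. Amh, the hormone of small growing follicles, overlapped at 95.0 and 40.1 TPM against 50.1 and 80.6 TPM. So did the FSH receptor gene Fshr, at 17.7 and 19.9 TPM against 13.4 and 25.8 TPM, and the aromatase gene Cyp19a1, at 5.85 and 18.6 TPM against 17.1 and 33.4 TPM. Of 10 ovulatory cumulus genes 8 were tested, and 4 (Pgr, Btc, Adamts1 and Tnfaip6) were higher without overlap, against 37.8% of all genes. Their list's median was 0.73 (0.04 to 1.49 over the alternatives run). Pgr and Btc were below 1 TPM in both libraries labelled young PBS and so were tested only through the old MIT-001 label.

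Oocyte genes differed most between the replicates labelled young PBS. Of 24 genes 19 were tested, 18 overlapped, and the median of -0.67 became 0.77 when replicate 1 labelled young PBS was left out, and -2.08 when replicate 2 was. Tle6, a member of the subcortical maternal complex, was the member whose groups did not overlap, at 57.6 and 54.4 TPM against 38.6 and 31.9 TPM (log2 fold change -0.66 ± 0.21). The zona pellucida gene Zp3 was at 69.7 and 6.87 TPM against 17.0 and 9.30 TPM, and so lay nearer in the libraries labelled old MIT-001 to replicate 2 labelled young PBS. Theca and interstitial genes (12 tested, 3 higher without overlap, median -0.03) held Insl3, a peptide hormone of theca cells, at 1.78 and 3.18 TPM against 5.87 and 7.82 TPM (1.19 ± 0.34). The steroidogenic genes Cyp11a1 and Star, which carry the first steps of steroid synthesis, overlapped at 9021 and 20654 TPM against 11469 and 12796 TPM, and at 2101 and 3928 TPM against 2530.5 and 1955 TPM. Among luteal genes 1 of 14 did not overlap. Akr1c18, which inactivates progesterone as corpora lutea regress, was at 425 TPM in replicate 1 and 13608 TPM in replicate 2 labelled young PBS, against 7777 and 13328.5 TPM.

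MHC class II genes had the largest share of lower members of the 45 lists. Of 11 genes 10 were tested; 6 did not overlap and were lower, against 6.57% of all genes, and 1 (H2-Ob) was higher. The median log2 fold change was -0.74, and it lay between -1.15 and -0.53 in every alternative run. H2-Ab1, the beta chain of the I-A molecule, stood at 184 and 241 TPM under the young PBS label and at 96.3 and 68.3 TPM under the old MIT-001 label (log2 fold change -1.36 ± 0.31, adjusted p by limma 0.156). Its partner chain H2-Aa was at 276 and 328 TPM against 160 and 117 TPM (-1.13 ± 0.32). Cd74, the invariant chain that fills the groove during transport, was at 675 and 1077 TPM against 375 and 321 TPM (-1.30 ± 0.33). H2-DMa, a chain of the peptide-exchange factor, was at 17.3 and 19.5 TPM against 9.28 and 7.60 TPM (-1.04 ± 0.27), while H2-DMb1, a chain of the same factor, overlapped at 15.0 and 13.3 TPM against 12.2 and 16.4 TPM. H2-Eb1, the I-E beta chain, was at 83.4 and 105 TPM against 51.7 and 54.1 TPM (-0.81 ± 0.22). Ciita, the transactivator of the class II genes, overlapped at 1.30 and 2.31 TPM against 1.74 and 0.841 TPM. Under the old PBS label the same genes were lower again, with H2-Eb1 at 1.39 and 1.53 TPM and H2-Ab1 at 15.9 and 25.6 TPM. The groups labelled young PBS, old MIT-001 and old PBS thus stood in falling order for both genes with no overlap.

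These genes share promoter elements, the X and Y boxes, which bind RFX and NF-Y factors and recruit CIITA. The 250 bases before the start of 3 of them are shown to set a pair that was lower beside a class II gene that was not. They are from RefSeq on GRCm38.p6, in 5′ to 3′ direction of the gene, at chr17:34287824-34288073 (minus strand) for H2-Aa, chr17:34305617-34305866 (plus) for H2-Eb1 and chr17:34152941-34153190 (plus) for H2-DMb1. Capitals mark TGATTGG (the inverted CCAAT core of a Y box), AACTGATG (within an X box) and TGACGTCA (the sequence of a cyclic AMP element). Only exact matches are marked, so a promoter without AACTGATG is not shown to lack an X box.
H2-Aa: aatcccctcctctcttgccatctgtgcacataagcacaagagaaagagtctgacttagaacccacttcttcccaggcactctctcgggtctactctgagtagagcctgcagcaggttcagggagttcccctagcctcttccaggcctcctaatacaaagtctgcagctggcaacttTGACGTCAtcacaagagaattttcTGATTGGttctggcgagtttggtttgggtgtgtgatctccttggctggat
H2-Eb1: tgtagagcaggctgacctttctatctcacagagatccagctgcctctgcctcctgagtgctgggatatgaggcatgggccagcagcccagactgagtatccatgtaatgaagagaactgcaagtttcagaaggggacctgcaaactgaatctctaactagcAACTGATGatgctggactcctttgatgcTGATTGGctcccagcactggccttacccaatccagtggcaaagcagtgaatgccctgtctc
H2-DMb1: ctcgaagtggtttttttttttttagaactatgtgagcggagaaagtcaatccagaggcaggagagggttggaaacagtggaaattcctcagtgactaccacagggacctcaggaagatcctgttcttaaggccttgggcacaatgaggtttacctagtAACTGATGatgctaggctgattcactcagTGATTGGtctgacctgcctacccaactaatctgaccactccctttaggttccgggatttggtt
All 3 hold TGATTGG, beginning 50, 61 and 63 bases before the start in the order shown. H2-Eb1 and H2-DMb1 share AACTGATG, beginning 89 and 92 bases before the start, and H2-Aa holds TGACGTCA, beginning 74 bases before it. Both strands were searched in 32851 RefSeq promoters of this length: TGATTGG occurs in 7.23% of them, AACTGATG in 0.676% and TGACGTCA in 1.55%, and no 2 of the matches marked above overlap. H2-Eb1 (log2 fold change -0.81) and H2-DMb1 (0.00) hold the same pair of motifs. The genes shown were chosen after their values were seen, so nothing is read from this.

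Macrophage genes were lower in part. Of 14 genes, all tested, 7 did not overlap and were lower, against 6.57% of all genes. Only 1, the phagocytosis receptor gene Mertk, was higher without overlap. The list's median was -0.53 (-0.94 to -0.44 over the alternatives run). The C1q chains, which lie side by side on the minus strand of chromosome 4, differed by nearly the same amount. C1qa stood at 238 and 253 TPM under the young PBS label and at 111 and 98.4 TPM under the old MIT-001 label (log2 fold change -1.22 ± 0.20). C1qb was at 242 and 179 TPM against 85.8 and 71.7 TPM (-1.40 ± 0.23), and C1qc at 215 and 178 TPM against 86.5 and 81.6 TPM (-1.21 ± 0.20). The lysosomal protein gene Cd68 was at 54.8 and 84.8 TPM against 33.0 and 35.8 TPM (-0.97 ± 0.26). Trem2, a lipid receptor of lipid-laden macrophages, was at 25.6 and 45.5 TPM against 18.9 and 11.96 TPM (-1.13 ± 0.37), but the list it belongs to had a median of -0.03. Csf1r, the receptor on which macrophages depend, overlapped at 24.0 and 72.1 TPM against 23.9 and 30.9 TPM. The mannose receptor gene Mrc1 overlapped too, at 10.1 and 18.0 TPM against 16.5 and 17.1 TPM. Summed over the macrophage list, the level was 1288 and 1266 TPM against 807 and 660 TPM, and whether fewer such cells had a part in the MHC class II values was not tested.

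None of the 12 genes with the largest lower fold changes passed (adjusted p by limma from 0.156 to 0.23). All 12 kept their sign in every alternative in which they were tested. They too were chosen for no overlap and large fold changes in these data, so this is not read as support. The C-type lectin genes Clec4a3 and Clec4a1, neighbours on chromosome 6, stood at 43.3 and 10.8 TPM against 5.93 and 3.74 TPM (log2 fold change -2.00 ± 0.67), and at 43.8 and 14.3 TPM against 7.42 and 4.20 TPM (-1.98 ± 0.55). Fcer1g, the signalling chain shared by Fc receptors, was at 160 and 47.5 TPM against 33.1 and 20.2 TPM (-1.72 ± 0.57). For these 3 genes, and for Lst1 (32.6 and 8.38 against 4.24 and 4.80 TPM) and Gngt2 (56.3 and 18.6 against 13.8 and 7.24 TPM), replicate 1 labelled young PBS was about as far from replicate 2 as the groups were from each other. Lrrc25, a leucine-rich repeat protein gene of leukocytes, had close replicates instead, at 10.9 and 10.7 TPM against 3.35 and 3.77 TPM (-1.37 ± 0.28). Pld4, an endolysosomal nuclease gene, was at 57.1 and 30.1 TPM against 17.1 and 12.3 TPM (-1.46 ± 0.37), and the water channel Aqp8 at 3.25 and 7.86 TPM against 0.843 and 1.99 TPM. The immunoglobulin segments among them, which can share reads with their relatives, were Igkv16-104 (13.6 and 2.11 against 0 and 0.209 TPM) and Ighj1 (15.5 and 14.0 against 5.36 and 2.35 TPM). Igkv16-104 was below 1 TPM in both libraries labelled old MIT-001 and so was tested only through its level under the young PBS label.

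Complement genes lay mostly below 0, with 14 of 18 log2 fold changes negative and a median of -0.50 (-0.91 to -0.29 over the alternatives run). Of the 18 genes 4 did not overlap and were lower, 3 of them the C1q chains, and 3 did not overlap and were higher. Among the higher ones were Cfi and Cd55, which restrain complement. Cfi, the protease factor I, stood at 5.02 and 0.900 TPM under the young PBS label and at 15.8 and 16.8 TPM under the old MIT-001 label (log2 fold change 2.36 ± 0.56). Cd55, which dissociates the convertases, was at 10.6 and 6.70 TPM against 24.3 and 23.9 TPM (1.41 ± 0.48). C3, the central component, overlapped at 213 and 427 TPM against 198 and 222 TPM. MHC class I and peptide loading genes had a median of -0.45 (-0.86 to -0.33 over the alternatives run). Without overlap 6 of 12 were lower and 0 higher, against 6.57% and 37.8% of all genes. Psmb8, an immunoproteasome subunit, was at 70.9 and 68.8 TPM against 46.6 and 41.3 TPM (-0.66 ± 0.19). Its fellow subunits Psmb9 and Psmb10 were at 37.9 and 37.7 TPM against 27.6 and 25.9 TPM, and at 72.7 and 55.4 TPM against 47.0 and 43.1 TPM. B2m, the light chain of class I, was at 854 and 823 TPM against 722 and 476 TPM. Interferon response genes (4 of 16 lower and 2 higher without overlap, median -0.21) and chemokines and cytokines (3 of 21 lower, 0 higher, median -0.24) stood nearer to 0.

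**Figure D4:**
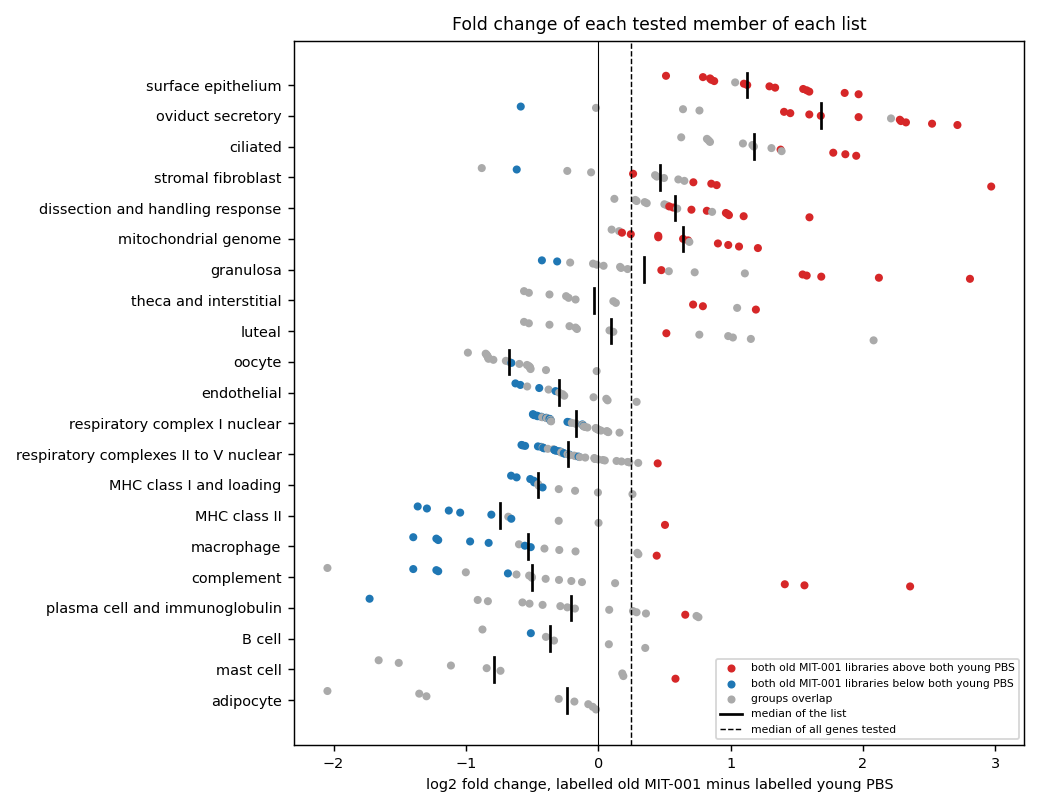
Log2 fold change (labelled old MIT-001 minus labelled young PBS, horizontal axis) of each tested member of 21 lists, coloured by whether both libraries of a group lay beyond both of the other. Black bars are list medians (1.12 for surface epithelium, -0.74 for MHC class II), and the dashed line is the median of all genes tested, 0.25.

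Many lymphoid, mast cell and fat cell genes differed more between replicates than between groups. Of 16 plasma cell genes tested, 13 were higher in replicate 1 than in replicate 2 labelled young PBS, and 14 under the old MIT-001 label. The list's median log2 difference, replicate 1 minus replicate 2, was 2.02 and 1.92 in these groups. Over all genes tested it was 0.08 and 0.04. Igkc, the kappa constant region, stood at 1340 and 174 TPM under the young PBS label and at 887 and 73.8 TPM under the old MIT-001 label. Sdc1, which epithelia also express, was higher in replicate 2 of both groups, at 154 and 544 TPM against 318 and 380 TPM. Igha, which encodes the heavy chain of IgA, had close replicates, at 59.7 and 65.4 TPM against 14.6 and 22.5 TPM (log2 fold change -1.73 ± 0.32). Ighg2b, a constant region of immunoglobulin G, was at 102 and 6.91 TPM against 180 and 2.51 TPM. Igha was the plasma cell gene that was lower without overlap, and Prdm1 was higher. The mast cell protease Mcpt4 was at 40.3 and 5.14 TPM against 19.7 and 0.513 TPM, and its listed value under the old PBS label was 0 in both. Hdc, the histidine decarboxylase on the same list, did not overlap and was higher, at 50.03 and 45.6 TPM against 84.5 and 61.4 TPM. Adipoq, the fat cell hormone adiponectin, was at 21.5 TPM in replicate 1 labelled young PBS and at 1.05, 1.27 and 2.36 TPM in the other 3 libraries. Plin4, a lipid droplet protein gene on that list, was highest in replicate 2 labelled young PBS instead, at 110.1 and 329 TPM against 143 and 196 TPM. All 8 fat cell genes tested overlapped. The medians of the plasma cell, mast cell and fat cell lists (-0.21, -0.79 and -0.24) turned to 0.56, 0.14 and 0.43 without replicate 1 labelled young PBS.

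Since MIT-001 is directed to mitochondria, genes of respiration and of defence against reactive oxygen were set beside each other. Nuclear and mitochondrial genes of the respiratory chain stood on opposite sides of all genes. Of all genes 6.57% were lower and 37.8% higher without overlap. Of 37 nuclear genes of complex I, 14 did not overlap and were lower and 0 higher (median -0.17, -0.58 to -0.11 over the alternatives run). Of 39 nuclear genes of complexes II to V, 16 were lower and 1 higher (median -0.23, -0.64 to -0.16). The differences were small. Ndufs3, a core subunit of complex I, stood at 304 and 297 TPM under the young PBS label and at 219 and 208 TPM under the old MIT-001 label, with a log2 fold change of -0.49 ± 0.19. Cox5b, a subunit of complex IV, was at 598 and 521 TPM against 409 and 403 TPM. Of the 13 protein genes of the mitochondrial genome, 10 did not overlap and were higher (median 0.64, 0.23 to 0.74 over the alternatives run). After median centring only 2 of the 13 were higher without overlap and 2 were lower, against 2911 and 4419 of all 15949 genes. ND2 was at 1319 and 1745 TPM against 2875 and 2802 TPM, and COX1 at 11887 and 13561 TPM against 13209.8 and 15166 TPM with overlap. Mitochondrial transcripts had no GC value here, so that centring was not applied to them.

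The median of the scavenging genes lay near 0, below that of all genes. Of 17 genes against superoxide and peroxide, 0 were higher and 4 lower without overlap (median -0.10). Of all genes 37.8% were higher and 6.57% lower, with a median of 0.25. After GC and length centring 0 of the 17 were higher and 9 lower, against 2292 and 3193 of 15247 genes. Sod2, the mitochondrial superoxide dismutase, overlapped at 89.1 and 52.7 TPM against 85.8 and 62.4 TPM, and the catalase gene Cat at 99.6 and 112 TPM against 123.05 and 111 TPM. The extracellular dismutase gene Sod3 was at 111 and 202 TPM against 96.5 and 70.5 TPM. Of 19 glutathione genes, 6 did not overlap and were higher and 4 lower. Gclc, the catalytic subunit for the limiting step of glutathione synthesis, was at 27.7 and 33.8 TPM under the young PBS label and at 62.5 and 66.7 TPM under the old MIT-001 label (log2 fold change 1.05 ± 0.20; 0.77 after GC and length centring). Gpx4, the peroxidase that guards membranes against ferroptosis, was at 1211 and 998 TPM against 835 and 750 TPM. Acsl4, which loads membranes with the lipids that ferroptosis oxidises, was at 97.3 and 93.0 TPM against 233 and 177 TPM, and its fold change of 1.09 ± 0.30 turned to -0.28 after GC and length centring. Psat1, an enzyme of serine synthesis on the integrated stress response list, was at 18.5 and 11.1 TPM against 41.9 and 55.0 TPM (1.67 ± 0.32; 1.46 after that centring), but 13 of the 14 other tested members of its list overlapped or were lower.

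Several lists with medians above 0 in TPM were at or below 0 after GC and length centring. The medians of the mitochondrial dynamics and apoptosis lists (0.18 and 0.22) were below that of all genes (0.25) to begin with. Of 19 tested genes of mitochondrial dynamics and mitophagy, 10 did not overlap and were higher, against 37.8% of all genes. Among them Ppargc1a was below 1 TPM in both libraries labelled young PBS and so was tested only through the old MIT-001 label. Dnm1l, the dynamin that divides mitochondria, was at 23.5 and 20.4 TPM under the young PBS label and at 61.4 and 57.7 TPM under the old MIT-001 label (log2 fold change 1.40 ± 0.31), and 0.30 after the centring. The list's median went from 0.18 to -0.37. Of 14 tested genes of double-strand break repair, 7 did not overlap and were higher, against 37.8% of all genes. The count was 0 after the centring, and the median went from 0.35 to -0.20. Atm, the kinase that signals such breaks, was at 2.70 and 3.63 TPM against 8.17 and 6.79 TPM, with a fold change of 1.03 ± 0.32 that became 0.04. The senescence list went from 0.57 to -0.001, the TGF-beta and fibrosis list from 0.42 to -0.01, and the apoptosis and atresia list from 0.22 to -0.005. After median centring the medians of the mitochondrial dynamics, apoptosis and repair lists were -0.22, -0.18 and -0.06. That step moves every gene alike and put the median of all genes at -0.16, so it cannot change a list's place among them. Within the TGF-beta list the receptor gene Tgfbr1 (24.6 and 19.6 against 48.2 and 80.9 TPM) went from 1.46 ± 0.31 to 0.10, while its target Ccn2, a matricellular protein (55.6 and 25.2 against 80.5 and 129 TPM), went from 1.42 ± 0.44 to 1.16. The surface epithelium, oviduct secretory, MHC class II and macrophage lists had medians of 0.93, 1.59, -0.83 and -0.77 under the same centring, with 11 of 15, 11 of 15, 0 of 10 and 0 of 14 members higher without overlap, and 0, 1, 7 and 9 lower. Over all 15247 genes with a value, 2292 were higher and 3193 lower without overlap under this centring, and the median was -0.07.

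**Figure D5:**
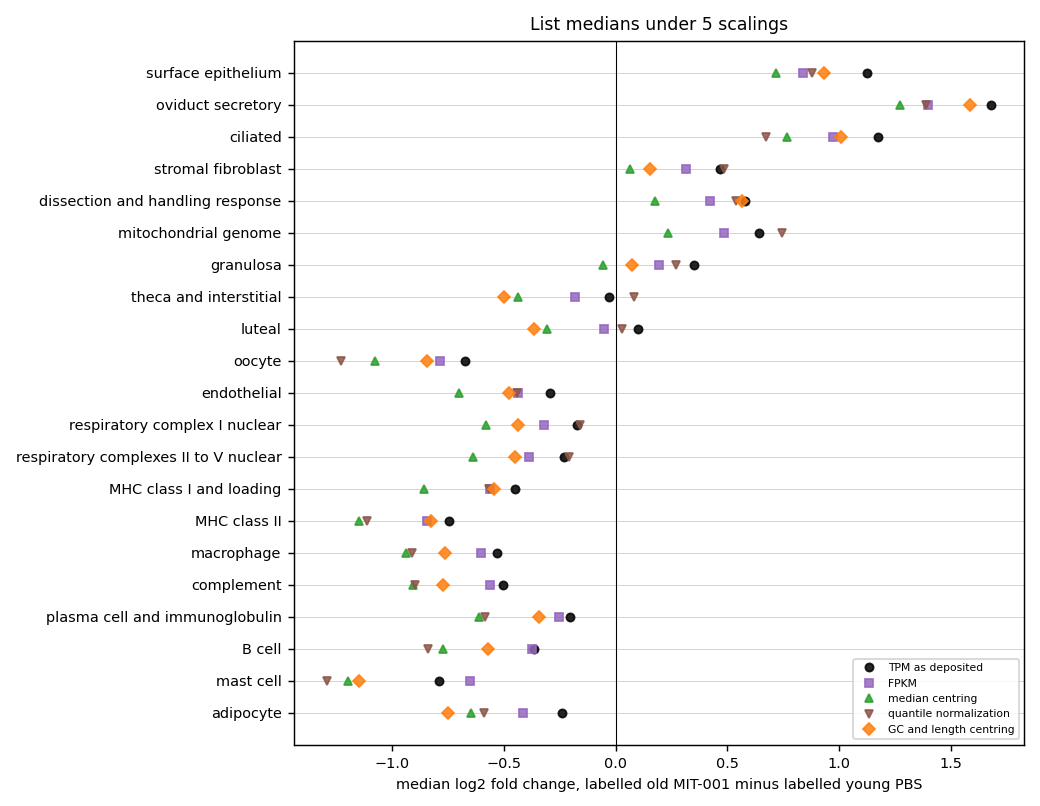
Median log2 fold change (horizontal axis) of 21 lists under TPM as deposited, FPKM, median centring, quantile normalization, and centring within bins of GC content and length. Surface epithelium (0.72 to 1.12 over the 5 scalings shown) and oviduct secretory genes stay above 0, MHC class II and macrophage genes stay below 0, and granulosa, luteal and theca genes cross 0.

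Collagen genes did not move together. Of 15, 4 did not overlap and were higher and the median was 0.09. Col8a1, a short-chain collagen of vessel walls, stood at 2.04 and 0.896 TPM under the young PBS label and at 6.06 and 16.2 TPM under the old MIT-001 label (log2 fold change 2.20 ± 0.54). The fibrillar Col1a1 overlapped at 117 and 289 TPM against 206 and 305 TPM, as did Col4a1 of basement membranes at 331 and 586 TPM against 360 and 367 TPM. Lox, the enzyme that crosslinks collagen, was at 7.60 and 3.81 TPM against 14.6 and 18.1 TPM (1.43 ± 0.38; 0.65 after GC and length centring). Endothelial genes were slightly lower, with a median of -0.30. Without overlap 4 of 13 were lower and 0 higher, against 6.57% and 37.8% of all genes. The junction gene Cldn5 was at 111 and 93.6 TPM against 66.8 and 64.8 TPM (-0.63 ± 0.20).

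Immediate early genes, which respond within minutes to tissue handling, had positive log2 fold changes in all 18 members, against 69.8% of all genes. Of 18, all tested, 9 did not overlap and were higher and 0 lower (median 0.58, 0.17 after median centring and 0.57 after GC and length centring). Of all genes 37.8% were higher without overlap. The count of 9 was 4 with FPKM and 2 after median centring, against 4568 and 2911 of all 15949 genes. Klf4 stood at 21.7 and 15.3 TPM under the young PBS label and at 45.5 and 71.7 TPM under the old MIT-001 label (log2 fold change 1.60 ± 0.31; it is also an epithelial transcription factor). Fos was at 369 and 162 TPM against 414 and 663 TPM, and Fosb at 186 and 121 TPM against 239 and 370 TPM. Summed over the list, and among the 4 libraries compared, replicate 2 labelled old MIT-001 was highest at 4579 TPM and replicate 2 labelled young PBS lowest at 1795 TPM, while replicate 1 was at 3058 TPM labelled young PBS and 2812 TPM labelled old MIT-001. Their part in the differences above was not tested.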

How the data were processed

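Whole ovaries were measured by messenger RNA sequencing in 6 libraries, 2 for each of 3 groups, and groups were taken from the sample labels. Per the labels' protocols, TRIzol was used for extraction and a SMARTer kit for library preparation. Trimmomatic, HISAT2 and StringTie were used with mm10, per the submitters' processing notes; for versions, annotation and strand handling, the sources used here give nothing. Each table lists TPM per gene, per the file headers, and the authors' TPM values add up to one total in every library. Gene IDs were matched to symbols through RefSeq's table for GRCm38.p6, and 98 rows had no match. The same tables hold FPKM values and coverage per gene, per the file headers, and no read counts were used. TPM divides a fixed total among genes, so higher values for some lower others.

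Testing was limited to the 15949 genes that reached 1 TPM in 2 or more of the 4 libraries. log2(TPM + 1) was fitted with limma 3.58.1 (R 4.3.3), with 1 mean per group over all 6 libraries and an intensity trend. The fit had 3 residual degrees of freedom, and p-values were Benjamini-Hochberg adjusted over all genes tested. All log2 fold changes are on this scale, which understates those of low genes. The fitting script was tested on simulated data. "No overlap" means that both libraries of one group lay beyond both of the other.

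The 45 gene lists hold 728 genes, of which 674 were tested. Members and lists were chosen with earlier results of these data known, so the counts and medians of lists are not read as support. By rule, the genes named were the 12 with the largest fold change in each direction (a mean of 5 TPM or more in the higher group, no overlap, unadjusted p below 0.05 since none passed), up to 4 members of each list with the smallest p, and the 2 most abundant of each cell type list. Other genes named, such as Cd55, Pax8, H2-Aa, H2-DMb1, Ciita and Kitl, were chosen after their values were seen. A result on 1 gene is not reported here. GC content and length are those of the longest transcript in GENCODE, and 95.6% of the genes tested had them. Alternatives varied the pseudocount, filter, scaling, model and libraries.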

Additional observations from a re-analysis of the deposited data

How the results depend on the processing

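No gene passed an adjusted p of 0.05 by limma under any alternative run, and the smallest adjusted p over them was 0.0596, without replicate 1 labelled young PBS. The number of genes higher at an unadjusted p below 0.05 (2818) was 1850 with FPKM, 1327 after quantile normalization, 1051 after median centring and 605 after GC and length centring, which was chosen after seeing the data. It ran from 1312 to 4155 when 1 library was left out. The number lower (134) was 272 with no filter, 372 with FPKM, 770 after quantile normalization, 1256 after median centring, 715 after GC and length centring and 73 in a fit of only the 4 libraries compared, and ran from 46 to 1344 when 1 library was left out. Genes higher without overlap (6025) numbered 3372 after quantile normalization, 2911 after median centring and 2292 after GC and length centring. Genes lower without overlap (1048) numbered 2173 with FPKM, 3417, 4419 and 3193 after the same 3 steps. The cause was not tested. Of 1125 alternative values for the fold changes of 63 named genes, 1124 kept their direction, and that of Acsl4 became -0.28 after GC and length centring. Genes were named by rules that use these data or after their values were seen, and several alternatives cannot alter a fold change. That count is therefore not read as support. List medians of changed sign numbered 5 of 45 with FPKM, 12 after median centring, 8 after quantile normalization and 13 after GC and length centring, and 13, 7, 2 and 8 without replicate 1 or 2 labelled young PBS and replicate 1 or 2 labelled old MIT-001.

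With the replicate number as a block, 2774 genes were higher and 140 lower at an unadjusted p below 0.05, and 0 passed (smallest adjusted p 0.187). Deviations of same-numbered libraries correlated at 0.245 across genes between the groups compared, but with 2 numbers and no label of a shared animal or day the libraries share only a number.

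With 2 libraries a group and no read counts, precision is limited by the number of libraries, and low genes carry a counting error that is unknown here.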
